A study of Homo sapiens with 6 samples.

Results

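Binding sites of the RNA-binding protein IGF2BP3 on long non-coding RNAs (lncRNAs) were examined. A site, called a cluster, is a stretch of genome where crosslinked reads with T-to-C conversions piled up. A cluster was taken as a lncRNA-exon cluster when it overlapped, on its own strand, an exon of a GENCODE v44 gene of type lncRNA and no exon of a protein-coding gene or of any pseudogene type. By this rule 3669 of the 244620 clusters of 5 IGF2BP3 libraries were lncRNA-exon clusters, and 1 of the 25 clusters of an IgG library was.

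The libraries came from HCT116, a human colorectal carcinoma line, with the genotype Tet-OsTIR1-PURO in every sample, so all groups carried this conditional OsTIR1 construct. All cells received 100 µM 4-thiouridine for 15 h before UV crosslinking, and each condition was made once from 5 dishes of cells. Endogenous IGF2BP3 was immunoprecipitated after digestion with RNase I at 0.1/0.025, 0.05/0.05 or 0.05/0.025 U/µL (in lysate/on beads) or with RNase T1 at 1/1 or 0.25/0.25 U/µL, and the IgG control was digested with RNase I at 0.1/0.025 U/µL. The design asked how the nuclease affects the sites that are found. There was 1 library per condition, so nuclease, concentration, gel extraction and depth cannot be told apart. The paper reports that the antibody partly recognizes the paralog IGF2BP2. Of 6 epithelial marker genes fixed for a check of the cell type, EPCAM had clusters in 5 of 5 IGF2BP3 libraries, KRT8, KRT18, CDH1 and CLDN4 each had clusters in 4, and VIL1 had none.

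IGF2BP3 is an oncofetal protein that binds RNA through RRM and KH domains and is known for contacting mature mRNAs in the cytoplasm, often in their 3′UTRs, where it is linked to RNA stability. Its KH domains favour short elements that start with CA, and CAUU-like tetramers are a common feature of its sites. lncRNAs are transcripts without a long open reading frame. Some, such as MALAT1 and NEAT1, stay in the nucleus, while others, such as NORAD, are mostly cytoplasmic, and the hosts of small nucleolar RNAs (snoRNAs) are spliced RNAs whose introns release a snoRNA.

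Sites of 7 genes that the results turn on are shown first, as 30-nt windows of GRCh38 at the crosslink mode of the gene's largest cluster in the RNase T1 1/1 library, 5′ to 3′ on the RNA strand. Capitals mark the tetramer CATT and its relatives CATC, the variant CATA, and also CAGT (T stands for U). The genes were chosen to show snoRNA hosts, cytoplasmic lncRNAs, a nuclear lncRNA and a gene whose sequence occurs elsewhere.
SNHG1, chr11:62852000-62852029, minus strand: gtgttggttgttgatgaaaataataaaatg
SNHG29, chr17:16441390-16441419, plus strand: gtcccaaggacCAGTagctgcCATCAGTtt
NORAD, chr20:36045647-36045676, minus strand: tcctataatgcaCATActaacttttaaaaa
UCA1, chr19:15835194-15835223, plus strand: ttccttattatctcttctgCATAggatctg
OIP5-AS1, chr15:41306150-41306179, plus strand: aCATTatCATCaatccttaaaCAGTaacag
MALAT1, chr11:65503999-65504028, plus strand: ttcaCATTtccaaagtttgcatgttaactt
ENSG00000289474, chr2:148881767-148881796, minus strand: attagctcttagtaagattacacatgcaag
All 7 windows lie inside an exon of their gene, and 5 of them hold at least 1 of the 4 tetramers. Of the 15 named genes with such a window printed for this library, 7 had a tetramer in it. The windows of SNHG1, SNHG29, NORAD, UCA1 and OIP5-AS1 had 1 exact match each in the genome, and the window of ENSG00000289474 had 7.

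The share of clusters that lay on lncRNA exons was similar in the 5 libraries. With RNase I at 0.1/0.025, 0.05/0.05 and 0.05/0.025 U/µL it was 1.44% (625 clusters; 95% Wilson interval 1.33 to 1.56), 1.53% (1396; 1.46 to 1.62) and 1.30% (480; 1.19 to 1.43). With RNase T1 at 1/1 and 0.25/0.25 U/µL it was 1.62% (972; 1.53 to 1.73) and 1.44% (196; 1.26 to 1.66). The mean was 1.47% ± 0.119 (SD, n = 5). Of cluster reads, 1.72%, 1.55%, 1.66%, 1.42% and 1.56% fell in lncRNA-exon clusters in the same order, a mean of 1.58% ± 0.114 (SD, n = 5). The RNase T1 1/1 library was thus highest by clusters and lowest by reads, and by clusters the 2 enzymes overlapped, RNase I spanning 1.30% to 1.53% and RNase T1 1.44% to 1.62%. The intervals cover counting error only.

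**Figure D1:**
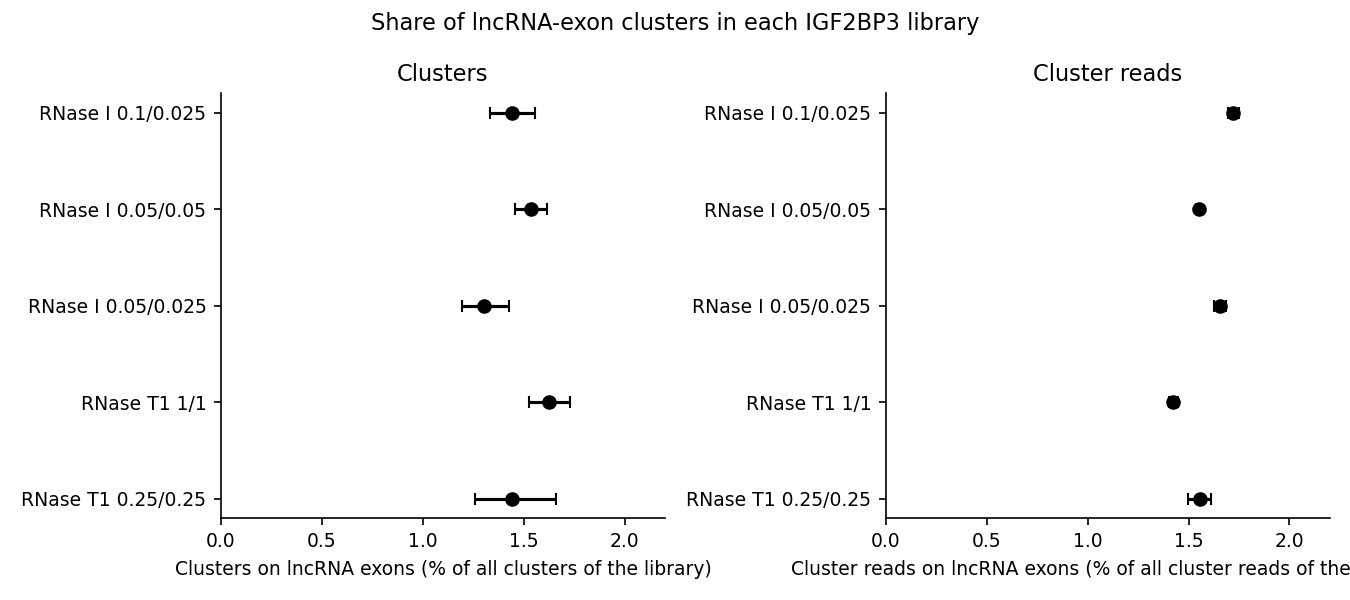
Share of clusters (left) and of cluster reads (right) on lncRNA exons, in percent of the library's total, for the 5 IGF2BP3 libraries. Points are the single library of each condition and bars are 95% Wilson intervals; cluster shares lie between 1.30% and 1.62% and read shares between 1.42% and 1.72%.

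In the IgG library the single lncRNA-exon cluster was in ENSG00000289474, with 8 of 324 cluster reads and 4 conversion events. Cluster reads summed to between 182448 and 2362467 in the IGF2BP3 libraries. The IgG library therefore gave almost no background to set gene levels against.

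The rule placed the lncRNA-exon clusters in 442 of 18866 annotated lncRNA genes. Of these genes, 61 had clusters in all 5 libraries and 158 in 1 library, and 212 had no symbol in the annotation. By position 209 were intergenic, 162 lay antisense to a protein-coding gene and 71 overlapped one in sense. Merged across libraries, the clusters formed 1710 loci, of which 90, in 54 genes, were found in all 5 libraries and 999 in 1. Of those 999, 915 came from the RNase I 0.05/0.05 or the RNase T1 1/1 library, which were the 2 deepest. The 90 shared loci held between 47.7% (RNase T1 1/1) and 87.0% (RNase T1 0.25/0.25) of the member reads of a library. A further 89 loci (5.20%) were in all 3 RNase I libraries and in no RNase T1 library, and 6 (0.351%) were in both RNase T1 libraries and in no RNase I library. Over the loci of all clusters these shares were 5.07% and 0.29%, so the counts are no result about lncRNAs, and the second needs a cluster in the shallowest library.

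Signal was concentrated in few genes. The 10 genes with the highest mean level held 50.3%, 42.7%, 53.3%, 30.8% and 52.1% of member reads in the 5 libraries, listed from RNase I 0.1/0.025 to RNase T1 0.25/0.25 as in every list of 5 values below. Levels are given in CPM, the reads of a gene's lncRNA-exon clusters scaled to a library of 1000000 cluster reads. They follow both the amount of an RNA and its contact with the protein, which cannot be told apart here since no RNA abundance was analysed.

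**Figure D2:**
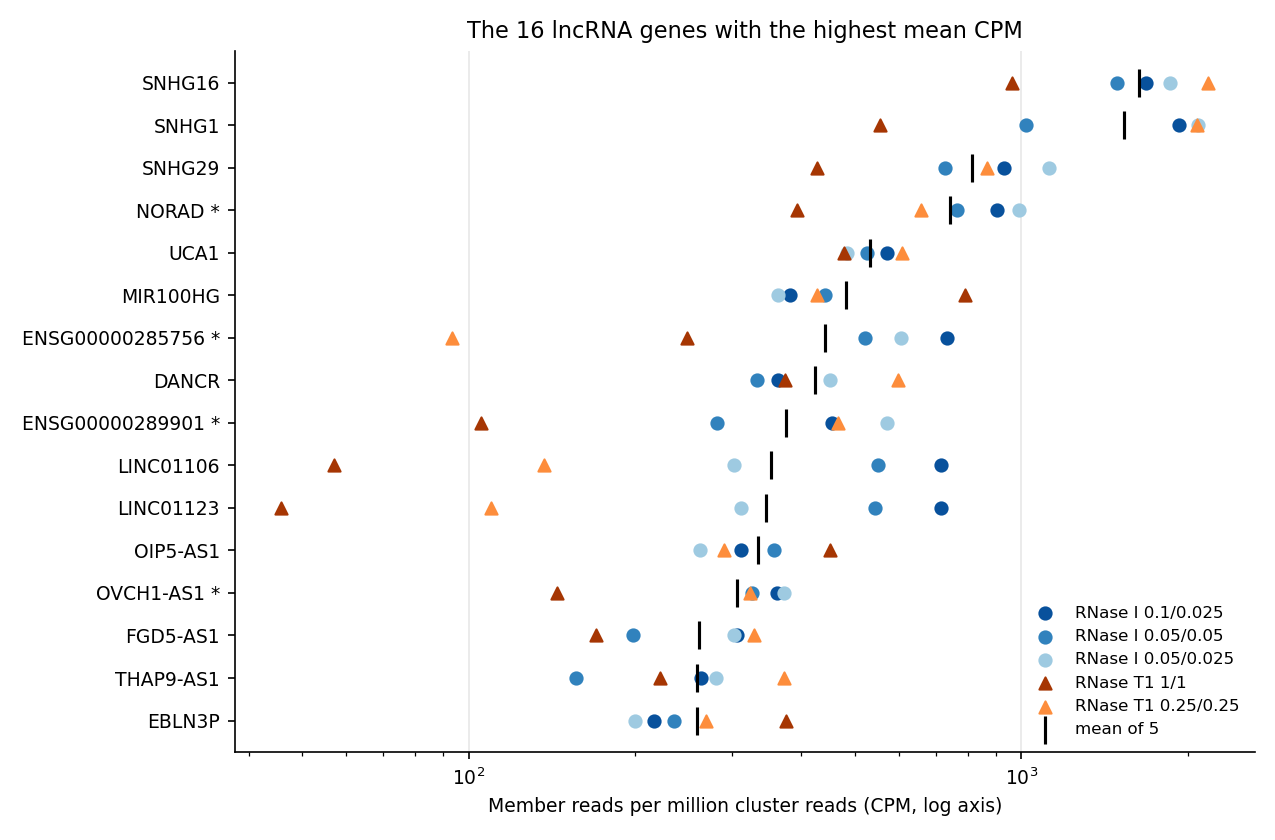
CPM of the 16 lncRNA genes with the highest mean over 5 IGF2BP3 libraries, on a log axis; circles are RNase I, triangles RNase T1 and the black bar is the mean. SNHG16 and SNHG1 lead with means of 1636 and 1535; an asterisk marks genes with over 50% of reads in clusters whose sequence also occurs elsewhere.

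Hosts of snoRNAs led the ranking. SNHG16, which carries 3 annotated snoRNAs, had 1685, 1489, 1862, 964 and 2181 CPM. SNHG1, with 7 snoRNAs, had 1929, 1021, 2092, 555 and 2077 CPM. SNHG29, with 3, had 930, 728, 1124, 428 and 866 CPM, from 747, 1721, 754, 495 and 158 reads. Of its 53 members, 45, with 3782 of these reads, lay within 5 kb downstream of the protein-coding gene TRPV2. All 3 genes were lowest in RNase T1 1/1 and next lowest in RNase I 0.05/0.05, and the RNase T1 0.25/0.25 values lay among or above those of RNase I. These 2 low libraries were the deepest and, per the methods, the electroeluted ones. The part of either in the difference was not tested.

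Across the annotation, 90 lncRNA genes contain a snoRNA gene and 23 of them had lncRNA-exon clusters. These 23 held 32.4%, 26.5%, 38.1%, 19.3% and 39.6% of member reads, a mean of 31.2% ± 8.43 (SD, n = 5). Most of that came from SNHG16 and SNHG1: without both, the mean share was 14.4%. The snoRNA hosts that met the target criteria in all 5 libraries numbered 6, or 26.1% of the 23 hosts with clusters, against 19 of 403 genes that host neither a snoRNA nor a microRNA (4.71%).

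On the list of 33 named snoRNA hosts, 18 had clusters in at least 1 library (54.5%, against 2.34% of all annotated lncRNA genes) and 8 in all 5. Other lists of named lncRNAs, given below, also exceeded this background, so the excess is not particular to snoRNA hosts. The median of the list's mean CPM was 0.508, against 0 over all annotated lncRNA genes. Beyond SNHG16, SNHG1 and SNHG29, DANCR had 363, 333, 452, 374 and 597 CPM. ZFAS1 had 270, 288, 391, 92.5 and 132 CPM. DANCR was highest in RNase T1 0.25/0.25, whereas both RNase T1 values of ZFAS1 lay below its 3 RNase I values. GAS5, a host linked to growth arrest, had 57.3, 105, 99.9 and 50.1 CPM in 4 libraries and no cluster in RNase T1 0.25/0.25.

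The clusters of SNHG1 followed its exons. Its canonical transcript on chr11:62851978-62855953 has 11 exons, and members overlapped 10, 10, 9, 7 and 2 of them. The first exon had no member in any library. The last exon, of 704 nt, held between 81.2% and 98.2% of the gene's member reads. In RNase T1 0.25/0.25, the shallowest library, 3 members remained, all on canonical exons. SNHG16 and SNHG29 differed from SNHG1: their members lay mostly on exons of other transcripts, with 0 to 2 of 13 to 18 members of SNHG16 and 0 to 4 of 8 to 16 members of SNHG29 on canonical exons.

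NORAD, a cytoplasmic lncRNA that binds PUMILIO proteins, had 906, 764, 990, 392 and 658 CPM. Its members covered 43.5%, 62.4%, 41.9%, 21.9% and 10.2% of its 5401 nt single exon, and 3 RNase I values lay above both RNase T1 values. OIP5-AS1, a cytoplasmic lncRNA known as cyrano, had 311, 357, 262, 451 and 290 CPM, with 1.18% to 14.7% of its 22370 nt of exons covered. It was highest in RNase T1 1/1, and the RNase I and RNase T1 values overlapped.

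Of the 15 colorectal cancer lncRNAs on the list that are lncRNA genes in this annotation, 5 had clusters. This share was 33.3%, against 2.34% of all annotated lncRNA genes. The lists of snoRNA hosts (54.5%), nuclear-retained (42.9%) and cytoplasmic (50%) lncRNAs also exceeded this background. The lists of microRNA hosts (2.41%) and of IGF2BP partners (0%) did not. The excess is thus not particular to colorectal cancer lncRNAs, and the lists were chosen with earlier results of these data known. Clusters in all 5 libraries were found for 2 of the 15 genes, against 61 of all 18866. UCA1, an oncogenic lncRNA first described in urothelial carcinoma, had 571, 527, 483, 478 and 608 CPM, the narrowest relative spread of the 10 highest genes (534 ± 56.4, SD, n = 5). PVT1 had 164, 182, 151, 76.9 and 159 CPM. CASC19 had clusters in RNase I 0.05/0.05 (166 reads) and RNase T1 1/1 (111 reads) and none in the other 3. Most UCA1 reads lay in its last 2 exons. Exon 1 of 5 had no member in any library, the clusters that start in exon 4 held between 54.1% and 85.8% of reads, and those that overlap the last exon, of 919 nt, held between 12.6% and 42.3%. A cluster that starts in exon 4 and reaches the last exon counts in both shares.

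**Figure D3:**
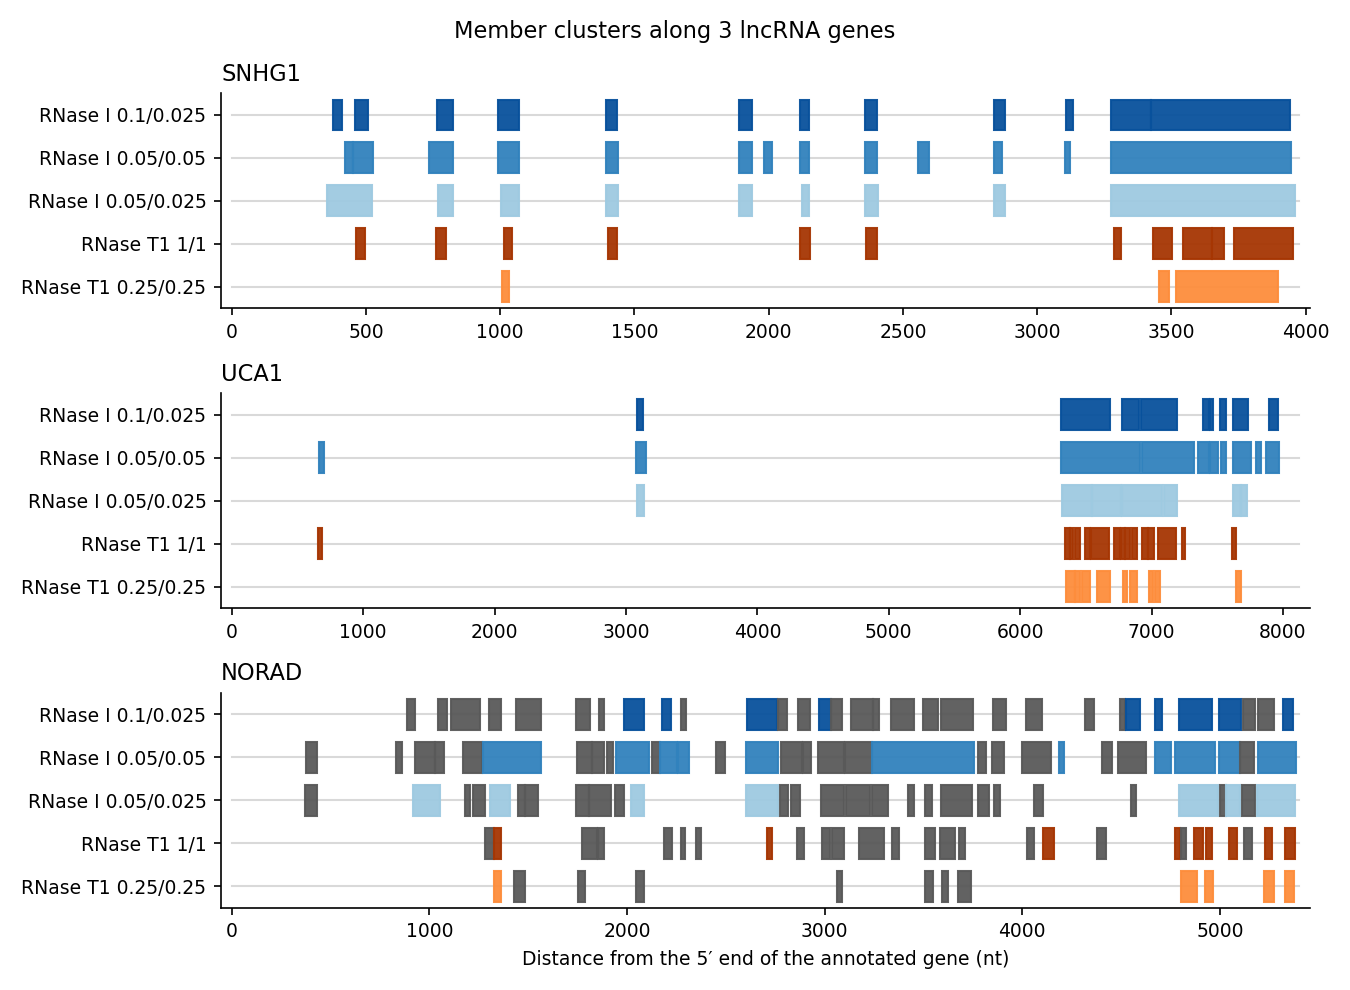
Positions of lncRNA-exon clusters along SNHG1, UCA1 and NORAD, in nt from the annotated 5′ end, with a row per IGF2BP3 library (blue RNase I, orange RNase T1). Dark grey boxes are clusters whose sequence matches a transcript of another locus: 89 of 130 for NORAD and 0 for SNHG1 and UCA1.

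MIR100HG, the host of miR-100, let-7a-2 and miR-125b-1, stood out among microRNA hosts with 382, 441, 364, 792 and 428 CPM. Its value in RNase T1 1/1 was above all others. Of 83 lncRNA genes named as microRNA hosts, MIR100HG and MIR4435-2HG had clusters, the latter with 10 reads in 1 library. This share, 2.41%, is near the 2.34% over all annotated lncRNA genes and is no result about the list. Both clusters of MIR4435-2HG matched CYTOR, a listed snoRNA host, at 100% identity. The 2 clusters of CYTOR matched MIR4435-2HG in turn, so this shared sequence counts in both lists. By position, 19 genes with clusters contain a microRNA, and these held 7.35%, 6.58%, 7.56%, 10.2% and 8.81% of member reads.

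Nuclear-retained lncRNAs had few reads. MALAT1 had 17, 84, 11, 74 and 6 reads, a mean of 3.26 CPM per kb of exon. This was far below NORAD (137 CPM per kb) and SNHG1 (386). However, 294 of the 442 genes with clusters lay below MALAT1 on this scale, and the median gene with clusters had 1.44 CPM per kb. Exon length on this scale joins the exons of all annotated transcripts, and for SNHG1 its 3976 nt equal the whole gene. NEAT1, the scaffold of paraspeckles, had 10 and 21 reads in RNase I 0.05/0.05 and RNase T1 1/1 and none in the other 3. LINC-PINT had 9, 5 and 31 reads in 3 libraries. Their means of 0.197 and 0.279 CPM per kb lay below that median. Of 7 nuclear-retained lncRNA genes, these 3 had clusters (42.9%, against 2.34% of all annotated lncRNA genes), MALAT1 alone in all 5 libraries. None met the target criteria in all 5, which 27 of the 18866 annotated lncRNA genes did. Of the 8 lncRNA genes on the list of cytoplasmic lncRNAs, 4 had clusters (50%). NORAD was the highest of them, and LINC00511 and JPX had 0.310 and 0.375 CPM per kb. KCNQ1OT1, FIRRE, MEG3 and TERC had no cluster, nor did H19 and THORLNC, which are listed as lncRNA partners of IGF2BP proteins. A count of 0 clusters does not show that an RNA was unbound, because its abundance was not analysed. TUG1 is protein-coding in this annotation, so its 152 exon clusters were not members.

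Sequence that occurs at more than 1 place in the genome was common among members. With the threshold of at least 95% identity over at least 95% of the cluster, 26.9%, 22.6%, 27.5%, 16.6% and 29.1% of members matched a transcript of a gene at another locus. For clusters on 3′UTRs the shares were between 2.64% and 3.58%. The mean difference was 21.3 percentage points ± 4.68 (SD, n = 5), higher in 5 of 5 libraries (exact two-sided sign-flip permutation test, p = 0.0625, the smallest that 5 libraries allow). By reads the members' shares were between 19.2% and 27.4%. Protein-coding transcripts were matched by 8.13% to 14.6% of members and other lncRNAs by 7.61% to 15.8%.

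**Figure D4:**
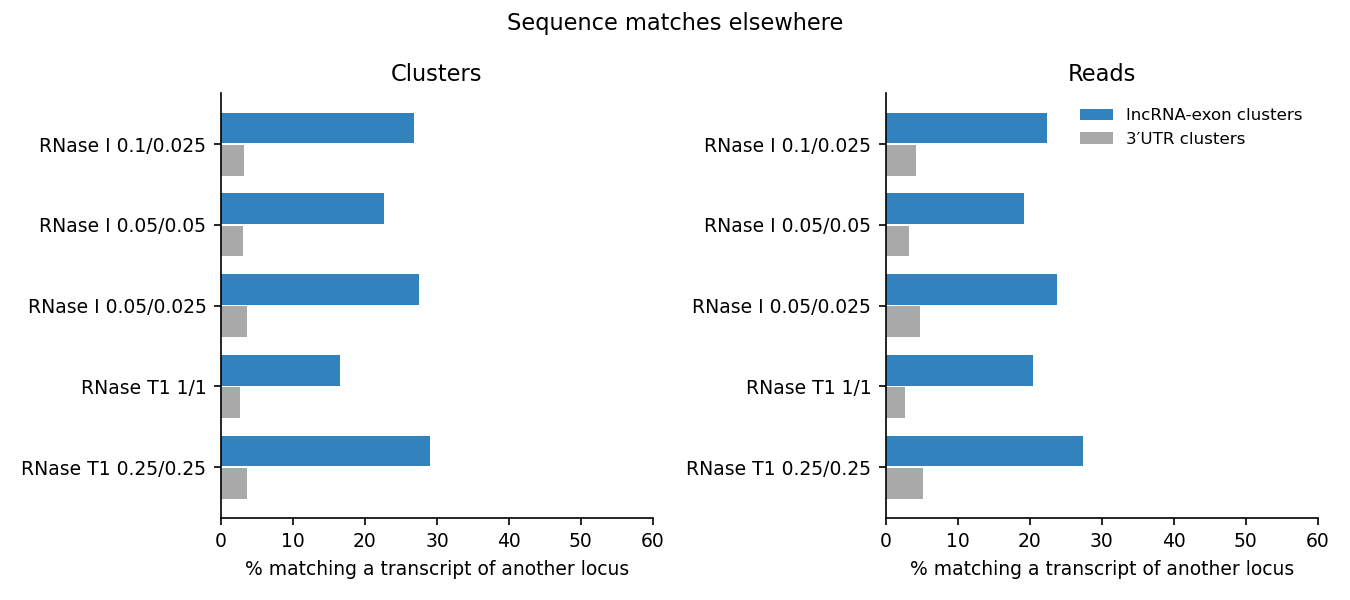
Percent of clusters (left) and of their reads (right) that match a transcript of another locus, for lncRNA-exon clusters (blue) and 3′UTR clusters (grey) of each IGF2BP3 library. Members lie between 16.6% and 29.1% by clusters and 3′UTR clusters between 2.64% and 3.58%.

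In 86 of the 442 genes every member matched elsewhere, and in 319 none did. Several lncRNA genes contain a copy of a protein-coding gene. All 38 members of GTF2IP1 (680 reads) matched GTF2I, which encodes a general transcription factor. All 29 members of SORD2P (797 reads) matched SORD, the sorbitol dehydrogenase gene. In ENSG00000264215, 39 of 40 members, with 825 of 905 reads, matched SCD, the stearoyl-CoA desaturase gene. The lowest identities of these matches were 98.3% for GTF2I, 97.3% for SORD and 96.1% for SCD. Whether reads in the matching clusters came from the lncRNA genes or from the matching mRNAs was not tested.

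NORAD shared sequence with other lncRNA genes. All 70 members of OVCH1-AS1 (362, 326, 373, 144 and 323 CPM) matched another locus, with NORAD among the matches, as did all members of ENSG00000284618 and HCG11. For NORAD itself, 89 of 130 members and 50.5% of its reads matched elsewhere, so the larger part of its clusters has a counterpart at this threshold. LINC01106 and LINC01123, on the same chromosome, had 717, 550, 303, 57.0 and 137 CPM and 717, 544, 312, 45.8 and 110 CPM. Their largest clusters held 551 and 551 reads in RNase I 0.1/0.025 and 1232 and 1216 in RNase I 0.05/0.05. Whether the same reads were counted at both loci was not tested. In ENSG00000285756, 80.6% of reads lay in clusters that matched elsewhere or had the sequence of another cluster of the library.

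The highest levels per length belonged to genes identical to mitochondrial RNA. ENSG00000289901, with 161 nt of exon on chr13:109424172-109424332, had 365, 666, 383, 122 and 85 reads. ENSG00000289474, with 116 nt on chr2:148881726-148881841, had 156, 405, 189, 122 and 43 reads, and was the member gene in IgG. Their means were 2334 and 1704 CPM per kb, against 386 for SNHG1, the next gene. All 16 clusters of both genes aligned to the mitochondrial genome with 0 or 1 mismatch, at positions 616 to 1162, which hold the 3′ part of the tRNA gene MT-TF and the 5′ part of the 12S rRNA gene MT-RNR1. The IgG cluster also matched it exactly. The libraries held 88 to 169 clusters on the mitochondrial chromosome itself. The conversion rate was under 0.5 events per read in 7 of the 10 values of both genes, and they met the target criteria in 2 and 3 libraries.

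ENSG00000261519 stood apart by its conversions. It had 1 cluster per library with 208, 366, 215, 174 and 51 reads, which carried 0.274, 0.298, 0.177, 0.0517 and 0.0980 T-to-C events per read, and it met the criteria in 0 libraries. In 4 libraries, the cluster matched RNY1, a small non-coding Y RNA, at 100% identity. This was the only gene among the 20 highest that was a target in no library.

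Over all members, the share with many conversions lay close to that of all clusters. More than 0.5 events per read, the conversion criterion of the methods, were found in 75.5%, 71.7%, 70.4%, 52.9% and 59.2% of members, against 75.5%, 74.2%, 69%, 54.5% and 59.3% of all clusters. Against 3′UTR clusters of the same library the difference was -0.923 percentage points ± 1.53 (SD, n = 5), lower in 4 of 5 libraries (exact sign-flip permutation test, p = 0.188; adjusted p = 0.281 over 12 measures). Its direction turned with a criterion of 0.75 events per read. It was -0.303 without RNase I 0.05/0.05 and -0.115 without clusters that match another locus.

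A gene was a target where it had at least 1 cluster above 10 CPM with more than 0.5 events per read. By this rule 91, 86, 87, 88 and 58 lncRNA genes were targets. These were 45.7%, 23.8%, 55.4%, 29.5% and 69.9% of the lncRNA genes with members, against 63.3%, 45%, 70.1%, 49.3% and 80.3% of all genes with exon clusters. The lncRNA share was lower than the background in each of the 5 libraries. The 2 shares are not like for like. A single passing cluster makes a target, and the number of clusters per gene was not matched. The lncRNA genes were judged on lncRNA-exon clusters only, the background on any exon cluster. In all 5 libraries 27 lncRNA genes were targets, and 168 were in at least 1. In RNase T1 0.25/0.25, 10 CPM is 1.82 reads, so the level criterion removed nothing there. Without members that match elsewhere, the mean number of targets went from 82 to 56.2.

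Compared with 3′UTR clusters of the same library, lncRNA-exon clusters were shorter. Their median lengths were 51, 52, 50, 32 and 37 nt, against 56, 58, 56, 34 and 38 nt, a mean difference of -4 nt ± 2.35 (SD, n = 5; lower in 5 of 5). Fewer were overlapped by a cluster of another IGF2BP3 library: 90.6%, 57.2%, 95.4%, 67.9% and 99.0%, against 95.1%, 62.2%, 96.4%, 79.8% and 99.5% (mean difference -4.58 percentage points ± 4.55, lower in 5 of 5). Each of these had an exact sign-flip permutation p = 0.0625 and an adjusted p = 0.15 over the 12 measures compared, so neither passes the threshold, which this design cannot reach. The recovery difference depended on how it was counted: it was -0.250 percentage points when the overlap had to span 50% of both clusters (library values from -6.68 to 4.13; p = 0.875 by the exact permutation test), -2.75 without RNase T1 1/1, and 0.0838, in the other direction, among clusters with at least 20 reads. The length difference was -14 nt among clusters with at least 20 reads, with 0 in 1 library.

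**Figure D5:**
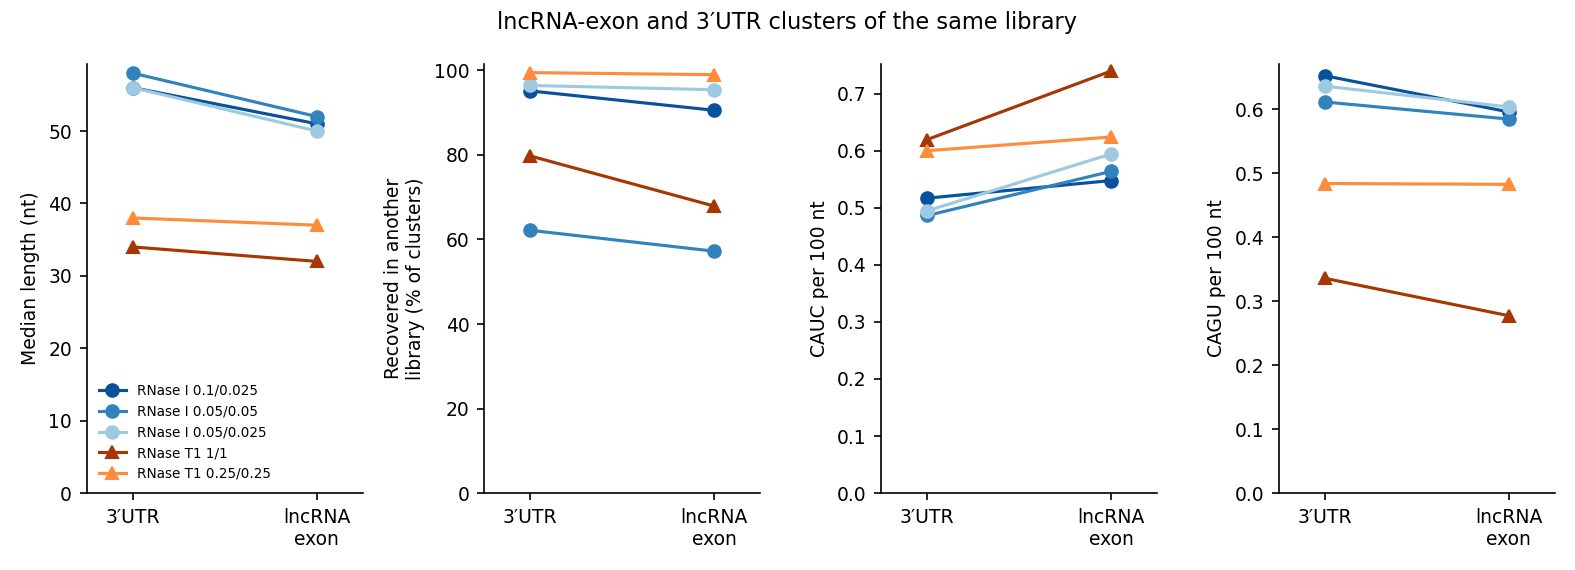
Median length, percent of clusters overlapped by a cluster of another IGF2BP3 library, and CAUC and CAGU occurrences per 100 nt, in 3′UTR and lncRNA-exon clusters of the same library (lines join the values of 1 library). Length, recovery and CAGU are lower and CAUC is higher on lncRNA exons in 5 of 5 libraries.

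The density of CAUU on members lay near that on 3′UTR clusters. CAUU occurred 0.888, 0.829, 0.910, 1.21 and 1.04 times per 100 nt of member sequence on the RNA strand, against 0.885, 0.787, 0.874, 1.13 and 1.18 on 3′UTR clusters (mean difference 0.00407 ± 0.0896, SD, n = 5; higher in 4 of 5; exact sign-flip permutation p = 0.938). All 5 member values lay above 0.514, the density over all exons of the genes with members. This was not particular to CAUU. Members also exceeded the exon density in all 5 libraries for CAUC (0.385), CAUA (0.317) and the tetramer CACA (0.515). CAGU lay below its exon density of 0.443 in RNase T1 1/1, and the tetramer GGAC lay below 0.283 in all 5. CAUU was in 40.3%, 38.7%, 41.9%, 36.3% and 32.1% of members. All clusters had it in 40.6%, 38.5%, 39.9%, 35.4% and 39.3%.

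CAUC was denser on lncRNA exons, at 0.548, 0.564, 0.594, 0.740 and 0.624 against 0.517, 0.486, 0.495, 0.619 and 0.600 per 100 nt. CAGU was sparser, at 0.596, 0.585, 0.604, 0.277 and 0.483 against 0.652, 0.611, 0.636, 0.336 and 0.484. Both differences had one sign in 5 of 5 libraries (exact sign-flip permutation p = 0.0625, adjusted p = 0.15). For CAGU this was lost under 6 alternatives, which gave a library with a positive difference. No alternative was run for CAUC, so how far its difference depends on the processing was not tested. In RNase I 0.1/0.025 the share of clusters with CAUC was lower among members (27.4% against 28.6% of 3′UTR clusters). In the other libraries that share was higher among members. The T content of members was also lower in 5 of 5 libraries. Its mean difference was -0.715 percentage points ± 0.570 (SD, n = 5; exact sign-flip permutation p = 0.0625, adjusted p = 0.15). CAGU was lowest in both RNase T1 libraries. RNase T1 cuts after G, and 95.4% and 88.3% of its members ended in G, against 10.2% to 13.4% with RNase I. A link between these ends and the CAGU density was not tested, and enzyme, extraction and depth cannot be told apart.

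Between nucleases, 13 of the 61 lncRNA genes with members in all 5 libraries had every RNase I value above both RNase T1 values (21.3%, against 19.7% of all genes with clusters in all 5). For 9 the order was the other way (14.8% against 17.7%). Both shares were near the background, so the counts are no result about lncRNAs. NORAD, LINC01106 and ZFAS1 were among the first and EBLN3P (217, 235, 200, 375 and 269 CPM) and SORD2P among the second. These libraries also differ in extraction and depth.

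Where a member could be set on a canonical transcript (53.6% to 66.5% of members), 60.7% to 77.5% of those in genes of several exons lay in the last exon, which made up 61.9% to 66.5% of exon length. The first exon held 8.16% to 14.8%, against 13% to 18.6% of length. Clusters inside introns of same-strand protein-coding genes made up 9.79% to 12.8% of members and clusters that overlapped a small RNA gene 1.44% to 3.57%. Those within 5 kb downstream of a protein-coding gene made up 5.66% to 8.13%, led by 45 clusters of SNHG29 downstream of TRPV2, an ion channel gene.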

How the data were processed

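IR-PAR-CLIP clusters of IGF2BP3 were analysed in 5 libraries and of IgG in 1. Per the labels and methods, the authors removed duplicate reads by UMI with UMI-tools 1.1.1, trimmed with Trimmomatic 0.30, aligned without splicing with Bowtie 0.12.7 to GRCh38 and ran PARalyzer on each library separately. In the deposited files each cluster has unnormalized counts of its reads and of its conversion events. The authors' deposited mode score, a fraction, was not used.

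Members, 3′UTR clusters and overlaps (at least 1 nt, same strand) were found with bedtools 2.31.1 on GENCODE v44. The 244645 cluster sequences had 0 differences from the genome. CPM is relative to the cluster reads of a library, since total library depth was not analysed here, and 10 CPM corresponds to between 1.82 and 23.6 reads. A read in a cluster over 2 lncRNA genes was counted for both. Tetramers were counted on the RNA strand, overlapping matches included. Members and 3′UTR clusters were aligned to GENCODE transcripts with ungapped blastn (BLAST+ 2.17.0), leaving out genes that overlap the cluster itself. Differences within libraries were tested by an exact two-sided sign-flip permutation over 5 libraries with Benjamini-Hochberg adjustment over 12 measures, and the IgG library entered no test. Target calls were tested on simulated data, where 200 of 200 target genes were recovered, and a recount of the member rule on 6878 clusters differed on 0.

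Named genes were the 10 with the highest mean CPM, the 5 with most reads per library, the 3 highest of each gene list and the IgG genes. OVCH1-AS1, LINC01123, ENSG00000261519, EBLN3P, JPX and the genes matching other loci were added after their values were seen. ZFAS1, GAS5, SNHG4, SNHG6 and SNHG7 are on the snoRNA host list but were not chosen by this rule. Nor were FGD5-AS1, THAP9-AS1 and ENSG00000268205. The members and lists were chosen with earlier results of these data known. The alternatives changed membership, read and conversion criteria, the comparison set and the libraries.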

Additional observations from a re-analysis of the deposited data

How the results depend on the processing

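No paired analysis was possible because each condition had 1 library, so no replicate number could pair conditions; the comparison of lncRNA-exon with 3′UTR clusters was made within each library. Of 105 alternative values computed for the shares, target counts, differences and the snoRNA host share, 12 moved and 7 turned direction. The other 86 stayed within 1 SD for a share, within 1.5 times for a count and on the same side of 0 for a difference, whose size could still change. The share of clusters (1.47%) moved to 1.31% without clusters in introns of protein-coding genes and to 1.11% without members that match a transcript of another locus, an alternative chosen after seeing the data. The share of reads (1.58%) moved to 1.36% when an exon on either strand excluded a cluster, to 1.27% without SNHG16 and SNHG1, to 1.46% without clusters downstream of protein-coding genes and to 1.21% without members matching another locus. The mean number of target genes (82) moved to 134.6 at 5 CPM, 47.4 at 20 CPM, 48.8 at 20 reads and 30.6 at 0.75 events per read, so the number of targets follows the criteria. The conversion difference turned to 1.75 percentage points at 0.75 events per read. The CAUU difference turned to -0.0260 per 100 nt without clusters in introns and to -0.0280 with at least 20 reads, and ranged from -0.0165 to 0.0419 when each library was left out in turn. The conversion difference (-0.923) shrank to -0.303 without RNase I 0.05/0.05 and to -0.115 without clusters matching another locus. The recovery difference (-4.58) turned to 0.0838 percentage points with at least 20 reads, shrank to -0.250 with a reciprocal overlap of 50% and was -2.75 without RNase T1 1/1. The cause was not tested. The mean length and CAGU differences kept their sign under every alternative run, but 6 of them gave a positive CAGU difference in at least 1 library, up to 0.0245 per 100 nt, and with at least 20 reads the length difference ranged from -31 to 0 nt. The share of member reads in snoRNA hosts (31.2%) moved to 40.9% without members matching another locus and to 14.4% without SNHG16 and SNHG1. Depth limits the RNase T1 0.25/0.25 library most, with 182448 cluster reads, and a gene without clusters there may be below what it could show.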

Other observations

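Several lncRNA genes outside the lists had clusters in all 5 libraries. FGD5-AS1 had 306, 199, 303, 170 and 329 CPM, and THAP9-AS1 had 264, 156, 280, 222 and 373 CPM, from RNase I 0.1/0.025 to RNase T1 0.25/0.25. Both met the target criteria in 5 of 5 libraries, and no member of either matched another locus. ENSG00000268205 had 175, 219, 119, 442 and 153 CPM and was highest in RNase T1 1/1. Of the smaller snoRNA hosts, 3 more had clusters in all 5 libraries. SNHG6 had 113, 54.6, 149, 34.6 and 87.7 CPM, SNHG7 had 97.1, 45.7, 101, 35.4 and 159 CPM, and SNHG4 had 72.2, 44.4, 92.4, 89.0 and 60.3 CPM. Of the 15 members of SNHG7, 9, with 120 reads, matched the gene ENSG00000280325 at another locus. Like SNHG1, SNHG6 and SNHG7 were lowest in RNase T1 1/1 and next lowest in RNase I 0.05/0.05, whereas SNHG4 was lowest in RNase I 0.05/0.05.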
